A study of Glycine max with 63 samples.

Results

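The 100 soybean genes described here stood higher at R6, the latest field stage sampled, in seeds of both transgenic lines than in seeds of their parent cultivar. They were chosen on values measured at R6. A gene was eligible when each of the 6 W-1 and WD-1 libraries at R6 lay above all 3 WT libraries in counts per 1000000 (CPM) of all counts, and when both line means were at least 5 CPM. Of 55752 genes outside a stretch of chromosome 13 identifiers (GLYMA_13G203300 to GLYMA_13G217700) that the rule left out, 1502 (2.69%) were eligible. These were ranked by the smaller of the W-1 and WD-1 log2 ratios to WT, with 0.5 CPM added to each mean, and the top 100 were taken, from 55897 soybean genes in the tables. The 100 genes are therefore high in both lines at R6 by construction, and R6 values are given below as a description without a test.

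The series examined developing soybean seed with Arabidopsis WRI1 alone or with Arabidopsis DGAT1, in a study of seed oil and carbohydrate. Field samples were seeds of W-1, WD-1 and the parent cultivar Thorne (WT) at R5, R5/6 and R6, with 3 libraries in each of the 9 groups. Each field library held RNA bulked from 4 seeds of a plot (12 seeds per plot were genotyped), and homozygous material of advanced generations was grown in randomized plots with 3 replications. Greenhouse samples were single peeled embryos labelled WD-1, WD-2 or WT at 24, 27, 30 or 33 days after pollination (DAP), with 3 libraries in each of 12 labelled groups. Transgene reads put both transgenes in WD-1 and AtWRI1 alone in W-1. The labels give neither the promoters of the transgenes nor a second event of W-1, so a W-1 effect cannot be told apart from an effect of that single line. The labels' growth protocol speaks of WD-1 and WD-2 in the field, whereas the field samples are labelled W-1 and WD-1. They also do not say whether the 3 stages were taken from the same plots, so the R5/6 libraries may share plots with the R6 libraries that chose the genes.

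WRI1 is a transcription factor that turns on genes of glycolysis and fatty acid synthesis in filling seeds. DGAT1 carries out the last step of triacylglycerol assembly, joining a fatty acyl group to diacylglycerol. In soybean, oil and protein build up in the cotyledons through R5 and R6, the stages of seed fill, before the seed dries.

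None of the gene identifiers (0 of 55897) could be found among the 59048 genes of the reference table used for names. The 100 genes therefore appear under their identifiers, without names or roles, and the lists of pathway genes and of embryo, seed coat, endosperm and green tissue markers could not be applied, so the labelled tissue could not be checked against its markers. In bulk RNA, more cells of a type and more RNA per cell cannot be told apart.

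Field libraries held 1.17 to 36.2 M counts and greenhouse libraries 3.02 to 23.6 M (M stands for 1000000 counts), and 10 of 27 field libraries held under 5 M. The WT libraries at R6 held 2.51, 1.17 and 27.2 M, and 19, 40 and 6 of the 100 genes had 0 counts in them. Where no read was counted, the limit of 3 counts corresponds to 0.0828 to 2.56 CPM in the field libraries, for counting error only. The library WD-1 R5/6 replicate 1 stood nearer to the R5 libraries than its fellow replicates did: its first principal component was 59.8, against 18.5 and -14.9 in replicates 2 and 3. W-1 R5/6 replicate 2 stood nearest of the W-1 libraries of its stage to R6, at -57.2, against 0.747 and -19.9 in replicates 1 and 3. Replicates were separate plots or plants, per the labels' protocols, and p-values measure the spread between them.

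AtWRI1 was read first, as a check of the labels. Levels here and below are TMM-normalized CPM, unless CPM of all counts is named. At R5 AtWRI1 stood at 4.07, 1.27 and 3.61 in W-1 and at 3.45, 64.3 and 17.6 in WD-1, at R5/6 at 111, 189 and 128 in W-1 libraries and 47.4, 171 and 242 in WD-1 libraries, and at R6 it averaged 223 ± 38.3 in W-1 and 262 ± 69.1 in WD-1 (SD, n = 3 each). WT libraries held 0 counts apart from 1 count in 1 R6 library. In WD-1 AtDGAT averaged 3.38, 11.7 and 33.2 over the 3 stages, and it had 0 counts in every W-1 and WT field library. All field labels therefore went with the transgene reads.

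At R6 the 100 genes had a median of 20.5 CPM in W-1 (range of gene means 5.00 to 467) and 24.2 CPM in WD-1 (6.87 to 527), against 1.20 CPM in WT (0 to 77.8). Their median log2 ratio to WT was 2.97 for W-1 and 3.34 for WD-1, and the smaller of a gene's 2 ratios ran from 2.30 to 5.71. GLYMA_15G182900 ranked first, with 26.1, 32.7 and 18.4 CPM in W-1 and 25.6, 44.2 and 20.6 CPM in WD-1, against 0 counts in all 3 WT libraries. Set against the limit of 3 counts over the WT group, it was at least 291-fold higher in W-1 and at least 269-fold higher in WD-1. That limit pools the 3 WT libraries and rests mostly on replicate 3, with 27.2 M counts. It covers counting error only, not the spread between plots. In WT replicates 1 and 2 alone the limit was 1.19 and 2.56 CPM. GLYMA_01G081900 ranked second, with 86.5, 81.2 and 76.0 CPM in W-1 and 94.9, 81.8 and 97.8 CPM in WD-1, against 1.59, 1.71 and 0.809 CPM in WT. Its 6 line libraries lay close together, far above the WT libraries.

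At the other end of the list the steps between genes were small. The smaller log2 ratio was 2.34 for GLYMA_04G032200 at rank 99 and 2.30 for GLYMA_13G220000 at rank 100, and the next genes left outside were GLYMA_17G187300, slightly smaller at 2.30, and GLYMA_14G092100 at 2.29. Fitted with edgeR's quasi-likelihood test on all 9 field groups, 98 of the 100 genes were past an adjusted p of 0.05 for W-1 and 98 for WD-1 in the R6 comparison, where 3.21% of all genes tested passed as higher for W-1 and 2.35% for WD-1. That contrast chose the genes, so nothing is read from these counts, nor from the 100 genes whose line libraries all lay above WT at R6 on TMM-normalized CPM, where 4.58% of all genes did. Of the other 3 genes with 0 WT counts at R6, GLYMA_11G124400 stood at least 151-fold higher in W-1 and at least 134-fold higher in WD-1, GLYMA_09G074000 at least 100.2-fold and 89.3-fold, and GLYMA_U030600 at least 65.9-fold and 81.3-fold. These bounds use the same pooled limit, which rests mostly on WT replicate 3.

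The genes were spread over the genome, with identifiers on all 20 chromosomes and 1 on an unplaced scaffold. Chromosome 8 held 12 of them and chromosome 11 held 11, where 6.58% and 4.60% of all soybean identifiers lie. Only GLYMA_15G182900 and GLYMA_15G183000 carried neighbouring identifiers, and 3 pairs in all lay within 10 identifiers of each other. Chromosome 13 held 8 of the genes, and GLYMA_13G220000, 23 identifiers from the stretch left out, was the nearest to it. Reads of near-identical gene copies may have been shared out between them, so a single gene's level may include some from a copy.

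**Figure D1:**
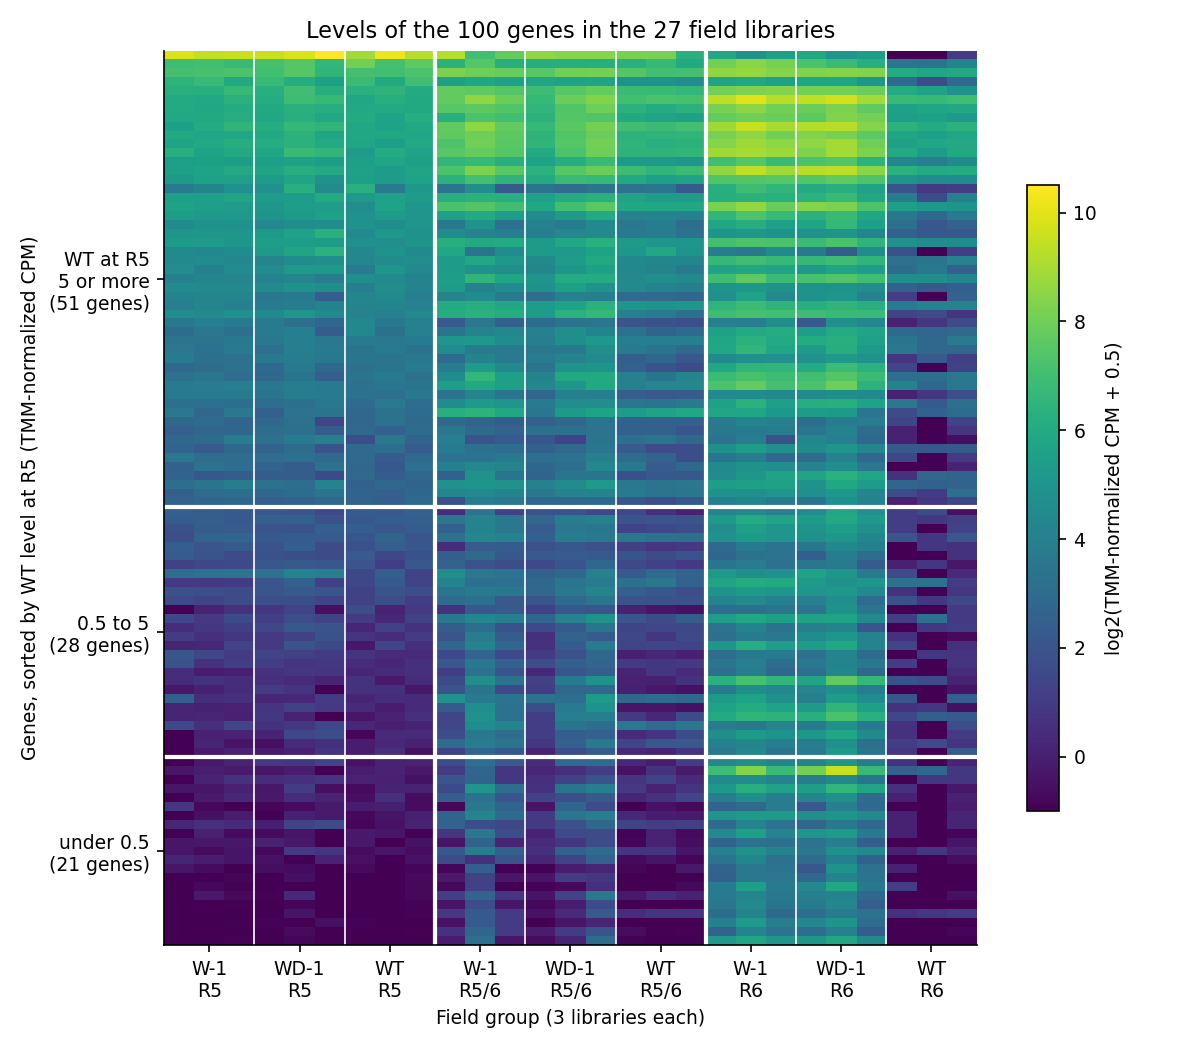
Level of each of the 100 genes in the 27 field libraries, as log2 of TMM-normalized CPM plus 0.5 (colour), with the genes sorted by their WT mean at R5 and white lines between groups of 3 libraries and between 3 classes of WT level at R5. The W-1 and WD-1 columns at R6 are brighter than the WT columns at R6 in all 100 rows, as the rule requires on CPM.

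The first question was whether the same genes already differed at R5/6, in libraries that took no part in choosing them. These libraries come from the same lines and may share plots with the R6 libraries, so they are not fully independent of the choice. A part of the genes did differ, in both lines. In W-1, 14 of the 99 genes tested were higher than in WT and 0 were lower at an adjusted p under 0.05 (edgeR), where 0.0836% of all 38299 genes tested were higher and 0.0183% lower. The log2 fold change was above 0 for 98 of the 99 (46.2% of all genes tested) and over 2-fold higher for 71 (4.43%). Its median was 1.34, against -0.03 over all genes tested. In WD-1, 25 of the 99 were higher and 0 lower, where 1.21% of all genes tested were higher and 0.773% lower. The log2 fold change was above 0 for 94 (51.3% of all genes tested) and over 2-fold higher for 55 (9.24%). Its median was 1.09, against 0.01 over all genes tested. The 14 genes made up 43.8% of the 32 genes that were higher in W-1 at this stage, and the 25 made up 5.40% of the 463 that were higher in WD-1. Both comparisons used the same 3 WT libraries.

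GLYMA_08G003100 had the largest change of any gene of the list called in W-1. It stood at 4.24, 24.2 and 9.24 TMM-normalized CPM in W-1 and at 2.90, 13.4 and 28.7 in WD-1, against 0.321, 0.306 and 0.211 in WT. The lowest line library was WD-1 replicate 1, and it was still several times the highest WT library. Its log2 fold change was 5.29 in W-1 (SE 0.74, adjusted p = 0.00307) and 5.59 in WD-1 (SE 0.73, adjusted p = 0.0011). GLYMA_13G223800 followed in W-1, with 5.98, 19.2 and 7.51 in W-1 libraries and 1.42, 11.1 and 14.5 in WD-1 libraries, against 0.700, 0.414 and 0.387 in WT, and a log2 fold change of 4.35 in W-1 (SE 0.81, adjusted p = 0.0438). Both lines lay wholly above WT for it. GLYMA_U030600, which had 0 counts in the WT libraries at R5/6, stood at 0.261, 1.50 and 1.33 in WD-1 (adjusted p = 0.0409). Its WD-1 mean was at least 32.6-fold higher, a bound for counting error only that replicate 1 alone does not reach.

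The smallest changes that passed the test belonged to more abundant genes. GLYMA_08G345900 stood at 66.5, 71.1 and 58.7 in W-1 and at 39.6, 51.1 and 79.1 in WD-1, against 32.1, 29.2 and 33.2 in WT. The line libraries were all above the WT libraries, by a log2 fold change of 1.05 in W-1 (SE 0.20, adjusted p = 0.0479) and 0.82 in WD-1 (SE 0.20, adjusted p = 0.0383). GLYMA_15G052500 stood at 95.8, 104 and 75.2 in W-1 and at 51.0, 71.1 and 108 in WD-1, against 38.7, 37.4 and 32.3 in WT. In WD-1 both genes were lowest in replicate 1 and highest in replicate 3, as AtWRI1 was, and the part of that in these results was not tested. The log2 fold change of GLYMA_15G052500 was 1.34 in W-1 (SE 0.21, adjusted p = 0.0114) and 1.06 in WD-1 (SE 0.21, adjusted p = 0.0150).

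Counted without a model, 49 of the 100 genes had all 6 line libraries above all 3 WT libraries at R5/6, where 1.23% of all genes did. The median level of the 100 genes in a library was 10.2, 17.0 and 10.5 in W-1 libraries and 6.54, 11.0 and 15.1 in WD-1 libraries, against 5.22, 4.34 and 4.07 in WT. All 6 line medians thus lay above the 3 WT medians, and WD-1 replicate 1, the library nearest to R5, came closest to them. W-1 replicate 2, the library nearest to R6, had the highest median.

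The number of genes past the threshold at R5/6 moved with single libraries, more than their fold changes did. In W-1 it was 2 without W-1 replicate 2, 6 without W-1 replicate 3, 3 without WT replicate 1, and 2 without WT replicate 2 or replicate 3, and the median log2 fold change stayed between 1.10 and 1.46. Leaving out libraries outside the comparison also changed the fit, and the number was 30 without WD-1 R5/6 replicate 1, 22 without WD-1 R5/6 replicate 3, and 7 to 9 without WD-1 R5/6 replicate 2 or any single R5 library other than WD-1 replicate 3. In WD-1 the number was 31 without WD-1 replicate 1, 9 without WD-1 replicate 2, 12 without WT replicate 1, 16 without WT replicate 2, 5 without WT replicate 3 and 41 without W-1 R5/6 replicate 1, with medians of 0.80 to 1.37. The call of GLYMA_08G003100 was kept in every alternative tried in both lines. GLYMA_13G223800 lost its W-1 call in 11 alternatives (adjusted p up to 0.226), GLYMA_08G345900 in 17 for W-1 (up to 0.244) and 8 for WD-1 (up to 0.135), GLYMA_15G052500 in 5 for W-1 (up to 0.0948) and 2 for WD-1 (up to 0.0986), and GLYMA_U030600 its WD-1 call in 9 (up to 0.168).

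**Figure D2:**
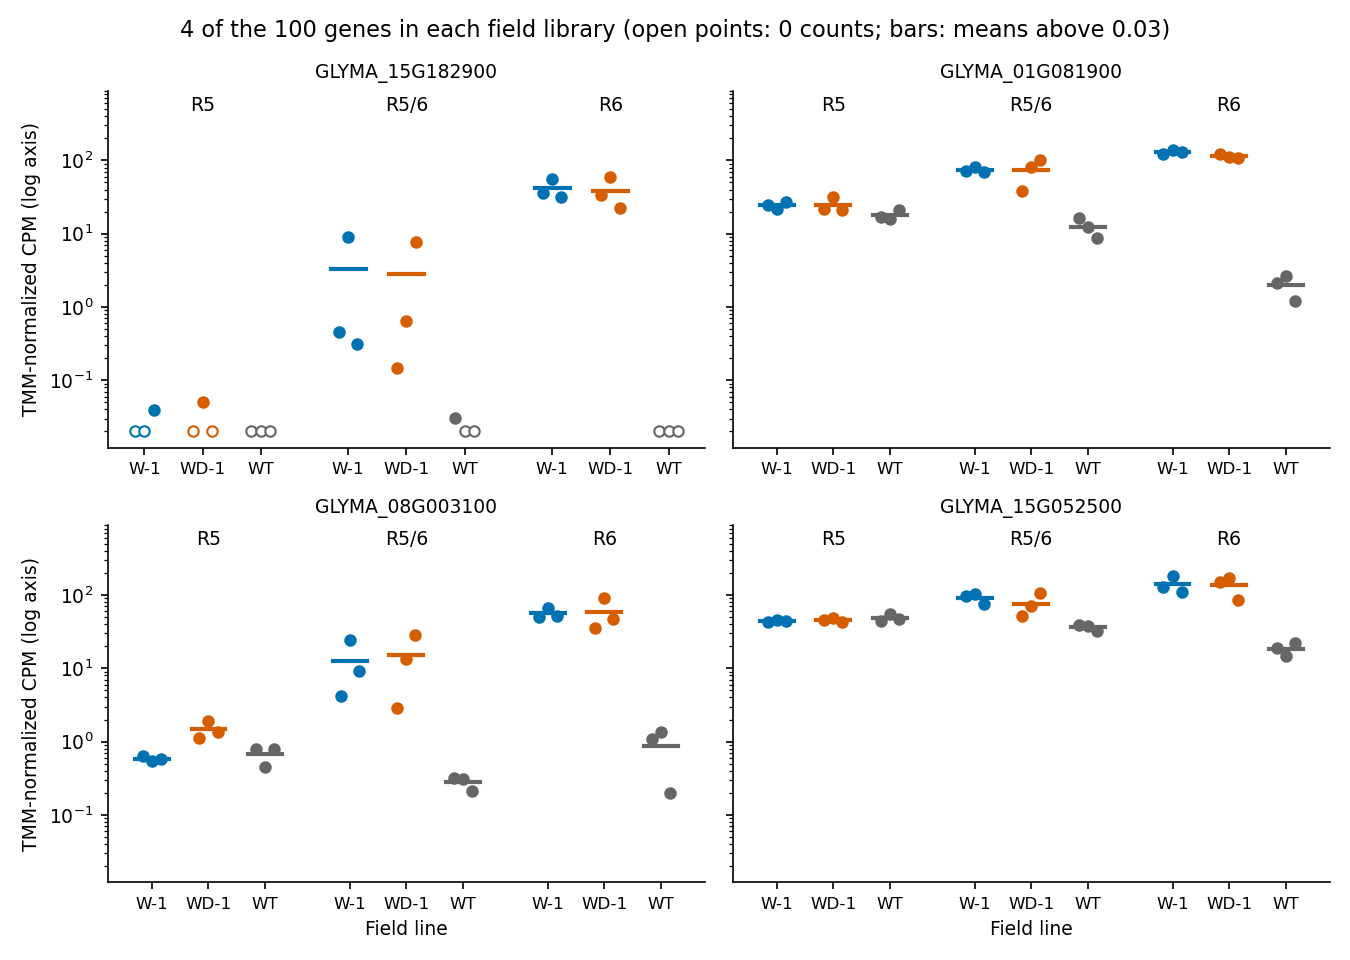
Level of 4 of the genes in each of the 27 field libraries (TMM-normalized CPM, log axis; points are libraries, bars are group means, open points at the bottom are libraries with 0 counts). In each panel the line libraries at R6 lie above the WT libraries, and the line means at R5/6 lie between those of R5 and R6, while the WT libraries at R5/6 stay within or under their R5 range in GLYMA_01G081900, GLYMA_08G003100 and GLYMA_15G052500.

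At R5 little of the difference was seen. In W-1, 0 of 99 genes were past the threshold with edgeR and 0 with DESeq2. With edgeR 0.0235% of all genes were higher and 0.0131% lower. An unadjusted p under 0.05 was found for 8 of the 99, 6 of them higher. The median log2 fold change was 0.04. It was above 0 for 56 genes (49.5% of all genes) and over 2-fold higher for 8 (4.03%). In WD-1, 1 gene was higher and 0 were lower, where 0.125% of all genes were higher and 0.00783% lower. Here 15 genes had an unadjusted p under 0.05, 13 of them higher and 2 lower. The share of all genes at this unadjusted limit was not counted for either line, so nothing is read from these numbers. The median was 0.25, with 71 genes above 0 (49.5% of all genes) and 17 over 2-fold higher (5.04%). AtWRI1 at R5 averaged 2.99 in W-1 and 28.5 in WD-1, where it was uneven by library (3.45, 64.3 and 17.6). Its part in these results was not tested.

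The gene that passed at R5 was GLYMA_15G176900, with 9.73, 17.8 and 14.9 in WD-1 against 2.32, 5.09 and 1.85 in WT. The groups did not overlap, and the log2 fold change was 2.20 (SE 0.41, adjusted p = 0.0296). The call was lost without WD-1 replicate 2, WD-1 replicate 3, WT replicate 1 or WT replicate 3, with adjusted p-values up to 0.278 over all alternatives that lost it. At R5, 8 of the 100 genes had all 6 line libraries above all 3 WT libraries, against 1.14% of all genes.

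**Figure D3:**
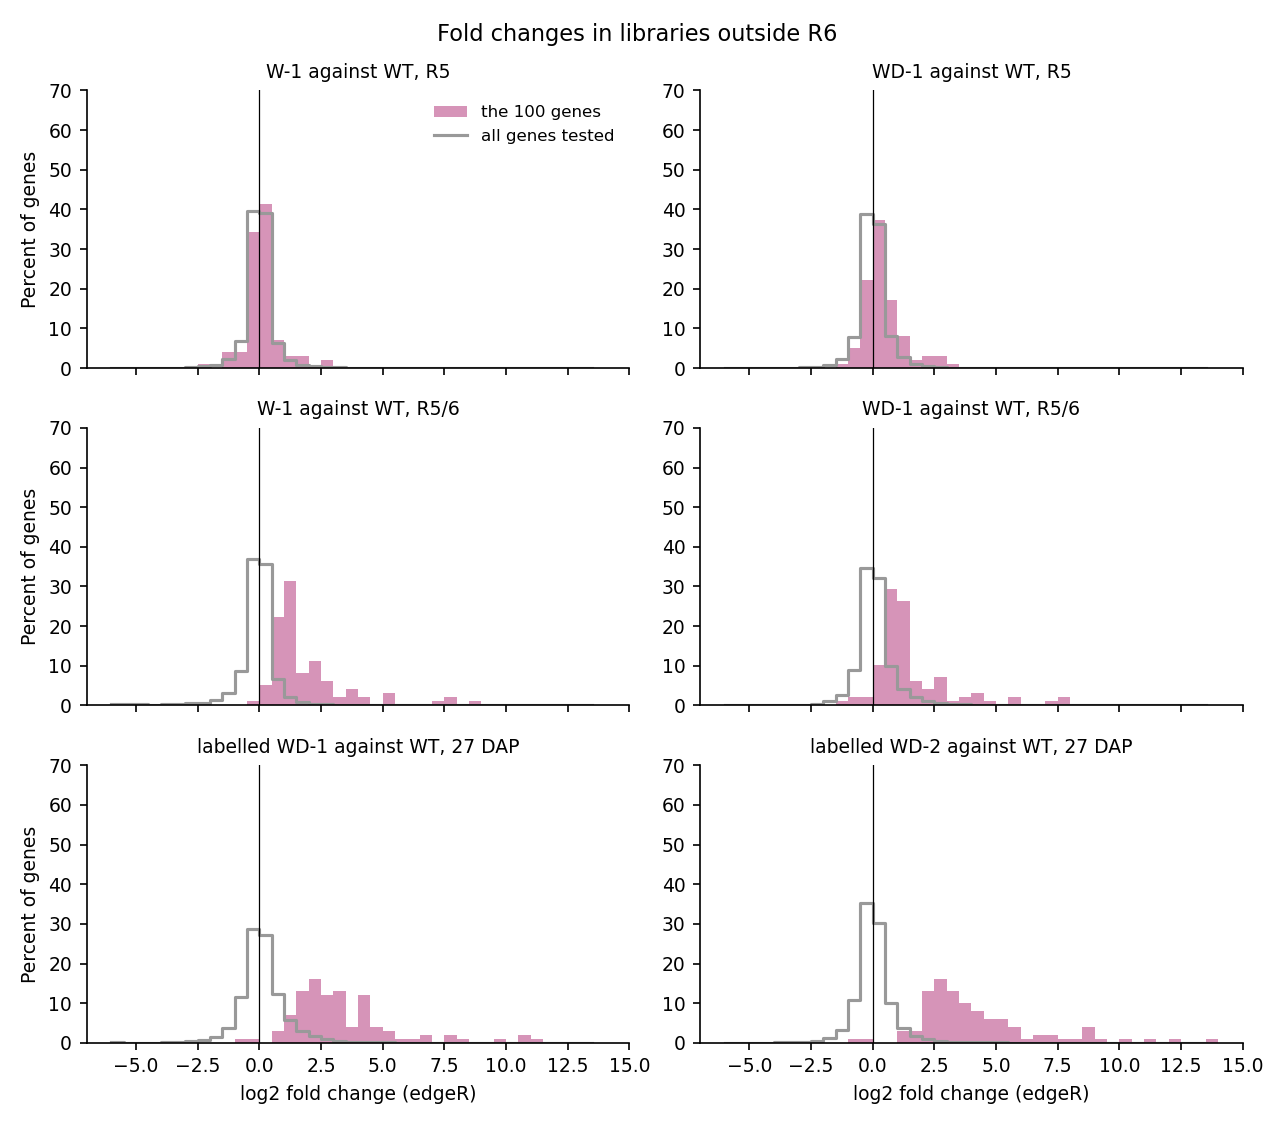
Share of genes (percent) in bins of the log2 fold change from edgeR, for the 100 genes (filled; 99 were tested in the 4 field panels) and for all genes tested (line), in libraries that took no part in choosing the genes. The filled bars lie over the line at R5 in W-1, are moved to the right of it at R5/6 with medians of 1.34 and 1.09, and are farthest right at labelled 27 DAP with medians of 2.86 and 3.53; the values farthest right belong to genes with few or 0 WT counts and depend on the model's prior count.

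The levels were then followed over the stages, of which R6 chose the genes. The median level of the 100 genes took the values 6.01, 13.1 and 33.3 over R5, R5/6 and R6 for W-1 and 5.79, 10.4 and 30.7 for WD-1, against 5.97, 4.74 and 1.73 for WT. Between R5 and R5/6, which the rule did not use, 65 of 99 genes rose and 3 fell in W-1, where 10.6% of all genes rose and 12.1% fell. In WD-1 41 rose and 2 fell, where 4.73% of all genes rose and 4.15% fell. In WT 18 rose and 17 fell, where 12.1% of all genes rose and 14.0% fell. The WT change was over 2-fold higher for 21 of the 99, where 9.87% of all genes tested had such a change. The median log2 change was 1.71 in W-1 and 1.15 in WD-1, against 0.28 in WT. Over all genes tested the medians were -0.03 in W-1, -0.01 in WD-1 and 0.01 in WT.

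Scaling matters for these changes between stages. With total counts in place of TMM, the median log2 change of all genes in WT moved to -0.46, that of the 100 genes in WT turned to -0.18, and 9 rose and 29 fell there. Relative to all genes tested, the 100 genes were then 0.28 higher in WT, as under TMM. The number that rose in WD-1 was 22 without WD-1 R5 replicate 1, 23 without R5 replicate 3, 20 without R5/6 replicate 2 and 22 without R5/6 replicate 3, and fell to 10 without the libraries under 5 M. The 3 that fell in W-1 became 1 without replicate 1 of W-1 at R5, 1 without replicate 3 of W-1 at R5/6 and 0 without replicate 2 of W-1 at R5. In WT, 11 rose without WT R5 replicate 1, and 11 fell without WT R5/6 replicate 3.

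Some genes were nearly unread at R5 and rose in a line. GLYMA_15G182900 had 2 counts in all 3 WD-1 libraries at R5 and 51 at R5/6, a ratio of levels of 27.8 (95% counting interval 7.31 to 236, adjusted p = 0.0368). By library it stood at 0.146, 0.635 and 7.78 in WD-1 and 0.452, 9.08 and 0.316 in W-1 at R5/6, against 0.0301, 0 and 0 in WT, so its level at R5/6 was uneven among replicates of both lines. GLYMA_05G130600 had 0 counts in W-1 at R5 and stood at 1.07, 6.30 and 1.58 at R5/6 (adjusted p = 0.00137). Its mean at R5/6 was at least 93.1-fold higher, a bound for counting error only. In WT it stood at 0.146, 0.0311 and 0.0352 at R5/6, against 0, 0 and 0.0243 at R5, which did not pass (adjusted p = 0.202). Tested directly, the change of neither gene differed between that line and WT past the threshold. The log2 difference was 4.71 for GLYMA_15G182900 (SE 46.6, adjusted p = 0.984) and 6.63 for GLYMA_05G130600 (SE 3.31, adjusted p = 0.780). With so few counts the test could hardly find a difference, so no likeness to WT is read from it. The WD-1 call of GLYMA_15G182900 was lost in 9 alternatives, with adjusted p-values up to 0.302.

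Some genes of the list rose in WT as well. GLYMA_03G008800 rose by 4.16 on the log2 scale in WT between R5 and R5/6 (SE 0.70, adjusted p = 0.000295), to 13.0, 7.56 and 11.8 at R5/6, against 0.740, 0.467 and 0.583 at R5. At R5/6 it stood at 2.27, 23.7 and 19.0 in W-1 libraries and 1.66, 10.3 and 8.32 in WD-1 libraries, overlapping WT. At R6 its WT libraries were at 1.07, 0 and 2.77, under all line libraries. GLYMA_08G275400 had 100 counts in WT at R5/6 and 2 at R5, a ratio of levels of 68.0 (95% counting interval 18.3 to 569, adjusted p = 0.00459).

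Other genes fell between R5 and R5/6. GLYMA_06G312200 fell in WT by 2.25 on the log2 scale (SE 0.28, adjusted p = 2.84e-05), to 3.62, 3.39 and 3.06 at R5/6, against 19.7, 12.3 and 16.2 at R5. In W-1 it fell by 1.15 (SE 0.31, adjusted p = 0.0123). GLYMA_11G247600 fell by 2.34 in WT (SE 0.58, adjusted p = 0.00600) and by 2.18 in WD-1 (SE 0.60, adjusted p = 0.0293). It stood at 10.2, 25.5 and 4.36 in W-1 libraries and 10.3, 8.13 and 10.4 in WD-1 libraries at R5/6, against 10.0, 10.9 and 4.09 in WT, with the groups overlapping. At R6 it was at 74.0, 122 and 95.2 in W-1 libraries and 65.9, 74.4 and 48.9 in WD-1 libraries, against 3.45, 1.45 and 1.71 in WT, with every line library above every WT library. The call of GLYMA_11G247600 was lost in 1 alternative for WT (adjusted p = 0.0599) and in 5 for WD-1 (up to 0.156), and that of GLYMA_06G312200 for W-1 in 3 (up to 0.143).

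Whether the line effect was larger at R5/6 than at R5 was tested directly. In WD-1 the difference passed for 8 of 99 genes, all with a larger effect at R5/6, where 0.467% of all genes did and 0.48% had a smaller one, and its median was 0.82. GLYMA_08G003100 had a difference of 4.49 (SE 0.96, adjusted p = 0.0339) and GLYMA_07G121900 one of 2.83 (SE 0.55, adjusted p = 0.0233). GLYMA_07G121900 stood at 10.3, 29.5 and 30.5 in WD-1 at R5/6, against 5.28, 3.40 and 2.73 in WT, and at 7.03, 13.0 and 6.85 in WD-1 at R5, against 9.62, 10.5 and 12.6 in WT. Its WD-1 libraries thus lay above WT at R5/6 and overlapped WT at R5. These differences lost the threshold in 7 alternatives for GLYMA_08G003100 (adjusted p up to 0.0993) and 6 for GLYMA_07G121900 (up to 0.0732).

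In W-1 the difference between the stages passed for 0 genes with edgeR, where 0.0% of all genes passed. With DESeq2 it passed for 5, where 14 of 34451 genes passed (10 of them with a larger effect at R5/6). The median was 1.25. With edgeR 57 genes had an unadjusted p under 0.05. The share of all genes at that limit was not counted, so nothing is read from it. The W-1 number past the threshold with edgeR was 3 without WD-1 R5/6 replicate 1. The WD-1 number ran from 0 to 14 when single libraries were left out. It was 0 without WT R5 replicate 1 or WT R5/6 replicate 3, 1 without WD-1 R5 replicate 3, WT R5 replicate 3 or WD-1 R5/6 replicate 2, 3 without WT R5/6 replicate 1, 5 without WD-1 R5 replicate 2, 4 without W-1 R5 replicate 1 or 2, 13 without W-1 R5/6 replicate 1 and 14 without WT R5 replicate 2.

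From R5 to R6 the levels are a description, since the R6 values chose the genes. The R6 mean was over 2-fold above the R5 mean for 88 genes of W-1 and 85 of WD-1, against 9 of WT. Among all genes averaging at least 1 CPM, 11.4%, 11.0% and 10.4% were so in W-1, WD-1 and WT. It was over 2-fold below the R5 mean for 1 gene of W-1 and 3 of WD-1, against 36 of WT. Of all these genes, 19.8%, 17.1% and 18.8% were so in W-1, WD-1 and WT. The median log2 ratio was 2.69 in W-1 and 2.49 in WD-1, against -0.27 in WT. On CPM of all counts these medians were 1.50 and 1.77, against -1.20 in WT, where the medians over all genes were -1.13 and -0.66, against -0.99 in WT. In 85 of the 100 genes all 6 line libraries at R6 also lay above all 6 WT libraries of R5 and R5/6, where 4.85% of all genes did. In 1 gene all 6 lay below, where 6.46% of all genes did. On CPM these numbers were 72 (0.905% of all genes) and 2 (17.3% of all genes).

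The gene that lay below was GLYMA_04G124100, at rank 5. Its mean was lower at each later stage in every genotype, and its WT mean at R5 was the highest of the list. Its means at R5, R5/6 and R6 were 788, 317 and 44.6 for W-1 and 1050.2, 357 and 46.2 for WD-1, against 765, 214 and 0.525 in WT. At R6 it stood at 60.0, 29.5 and 44.2 in W-1 libraries and 62.8, 32.7 and 43.0 in WD-1 libraries, against 0, 0 and 1.58 in WT, so its lines stood above WT at R6 at a level far under that of R5.

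Grouped by their WT level at R5, the genes fell into 51 at 5 TMM-normalized CPM or more, 28 between 0.5 and 5, and 21 under 0.5. The 51 abundant genes had a median at R6 of 68.5 in W-1 and 65.3 in WD-1, against 8.15 in WT, whose median at R5 had been 21.1. The 28 genes of middle level had R6 medians of 19.5 for W-1 and 25.1 for WD-1, against 1.11 in WT, whose median at R5 had been 1.20. The 21 genes of low level had 17.7 in W-1 and 15.0 in WD-1, against 0.197 in WT, whose median at R5 had been 0.195. The WT median was lower at R6 than at R5 in the abundant class and about level in the other classes. The classes were cut on WT at R5 and the rule used WT at R6, so nothing is read from this pattern. In the middle and low classes the WT medians at R6 also lay under the limit of 3 counts in WT replicates 1 and 2, 1.19 and 2.56 CPM of all counts.

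At R5/6 the median log2 fold change was 1.02, 1.78 and 3.41 from the abundant to the low class for W-1 and 0.89, 1.34 and 2.81 for WD-1. The numbers past the threshold ran the other way in W-1, with 10 of 51, 3 of 28 and 1 of 20 genes tested, and were 13, 10 and 2 in WD-1. The share of all genes of the same level that passed was not counted, so nothing is read from these numbers about the list. Counts were few in the low class, where 7 genes tested were under 0.5 CPM in all 6 WT libraries of R5 and R5/6. Such genes could pass the filter mainly through the lines. That limit is not the filter's own, so more genes may have passed in this way. All of them stay in the numbers and medians given for R5/6.

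WD-1 and W-1 were compared directly at R5/6. They are separate lines that differ in AtDGAT and also in AtWRI1 level at R5, so a difference could not be assigned to AtDGAT. Of 99 genes, 0 were higher and 0 lower with edgeR and with DESeq2, where 0.219% of all genes were higher and 0.0313% lower. An unadjusted p under 0.05 was found for 3 genes, all lower in WD-1, and the share of all genes at that limit was not counted. The median log2 fold change was -0.26, against 0.02 over all genes. It was 0.03 without WD-1 replicate 1 and -0.56 without WD-1 replicate 3, where 1 gene was called lower. With total counts in place of TMM the median of the 100 genes turned to 0.14, while that of all genes moved to 0.48. These values do not show that the lines had the same level.

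At R6 the medians of the lines were a matter of scale. The median log2 ratio of WD-1 to W-1 was 0.29 on CPM, with 86 genes above 0, and -0.07 on TMM-normalized CPM, with 38 above 0. On both scales GLYMA_18G138400 had the highest ratio, 1.39 and 1.05, and GLYMA_18G009700 the lowest, -1.05 and -1.40, both named after their values were seen.

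In the greenhouse the transgene reads went against the labels in many libraries. All libraries labelled WD-1 or WD-2 at 24 DAP had AtWRI1 levels of at most 0.326, as had those labelled WT at 24 and 27 DAP, while all libraries labelled WT at 30 and 33 DAP carried both transgenes at levels of the lines. Only at labelled 27 DAP did transgene reads follow the labels, and this day alone was tested. File names of those 9 libraries carry 3 different time codes, 1 for each labelled group, so genotype and day cannot be told apart there. They carry only 2 letter codes, and labelled WD-1 and labelled WD-2 share 1 of them, so the file names do not tell those groups apart as lines.

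At labelled 27 DAP nearly the whole list was higher in both labelled WD groups. In labelled WD-1 97 of 100 genes were higher and 0 lower than in labelled WT, where 25.9% of all 32983 genes tested were higher and 21.0% lower. In labelled WD-2 98 were higher and 1 lower, where 16.8% of all genes were higher and 14.0% lower. In labelled WT 22 of the 100 genes averaged under 0.5, and 3 of these had 0 counts. Genes that low could pass the filter mainly through the labelled WD groups, where they were high, so their calls are conditioned on that. The median log2 fold change was 2.86 in labelled WD-1 and 3.53 in labelled WD-2, against 0.04 and -0.02 over all genes tested. All 3 libraries lay above the 3 labelled WT libraries for 97 genes in labelled WD-1 (22.2% of all genes) and 98 in labelled WD-2 (18.4% of all genes). The number higher was 96 to 98 in labelled WD-1 and 98 in labelled WD-2 when single libraries were left out.

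GLYMA_01G081900, second in rank at R6, stood at 33.6, 33.1 and 32.0 in labelled WD-1 and 39.6, 40.2 and 37.5 in labelled WD-2, against 0.0823, 0.0808 and 0.116 in labelled WT. GLYMA_15G182900 stood at 17.1, 19.0 and 8.13 in labelled WD-1 and 42.2, 43.5 and 45.7 in labelled WD-2, against 0.0412, 0.0404 and 0.116 in labelled WT. Both were read in the labelled WT libraries at most at the level of a few counts.

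GLYMA_04G124100 stood at 92.7, 92.3 and 172 in labelled WD-1, against 0, 0.0808 and 0.0385 in labelled WT. That is 13151 against 3 counts, a ratio of levels of 3079 (95% counting interval 1053 to 14930, adjusted p = 8.54e-10). GLYMA_11G124400 stood at 10.4, 12 and 2.79 in labelled WD-1 and at 52.9, 48.9 and 55.3 in labelled WD-2, against 0 counts in labelled WT. Its mean was at least 209-fold higher in labelled WD-1 (adjusted p = 1.1e-05) and at least 1310-fold higher in labelled WD-2 (adjusted p = 5.62e-07). These bounds cover counting error only, not the spread between libraries. With 0 counts in labelled WT, the gene could pass the filter only through the labelled WD groups.

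The exceptions were few. GLYMA_11G018000 had the smallest rise called in labelled WD-1, at 13.3, 16.6 and 10.1 against 8.97, 9.97 and 9.86 in labelled WT, which is 0.54 on the log2 scale (SE 0.15, adjusted p = 0.00950). In labelled WD-2 the one gene that was lower was GLYMA_20G015600, at 2.67, 2.69 and 2.24 against 4.24, 3.52 and 4.62 in labelled WT, which is -0.70 on the log2 scale (SE 0.17, adjusted p = 0.00611). The same gene stood at 14.9, 11.2 and 14.0 in labelled WD-1, above labelled WT. Each of these calls was lost in 1 alternative, at an adjusted p of 0.0555 for GLYMA_11G018000 and 0.134 for GLYMA_20G015600.

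Over all 36 greenhouse libraries, the level of the list went with transgene reads rather than with the labels, apart from 1 library. In the 12 libraries labelled 24 DAP or WT at 27 DAP the median of the 100 genes was 1.73 to 2.70, and AtWRI1 was 0 to 0.326. In the other 24 the median was 11.1 to 27.9. AtWRI1 was 109 to 273 in 23 of these. The width of the gap between the medians was a matter of scale, with TMM factors of 0.344 to 2.03 over the greenhouse libraries. On CPM of all counts the median was 2.11 to 4.48 in the 12 libraries and 5.52 to 33.1 in the other 24. In the libraries labelled WT at 30 DAP the median was at least 23.1. By the labels alone, day and genotype cannot be told apart in these ranges. The codes of the file names were counted here only for the 9 libraries labelled 27 DAP.

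The remaining library was replicate 2 of labelled WD-1 at 30 DAP. AtWRI1 and AtDGAT both had 0 counts among its 5.82 M, while the median of the 100 genes in it was 15.9. Here 97 of the 100 genes lay above all 3 libraries labelled WT at 27 DAP and 1 lay below, where 33.0% of all genes lay above.

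**Figure D4:**
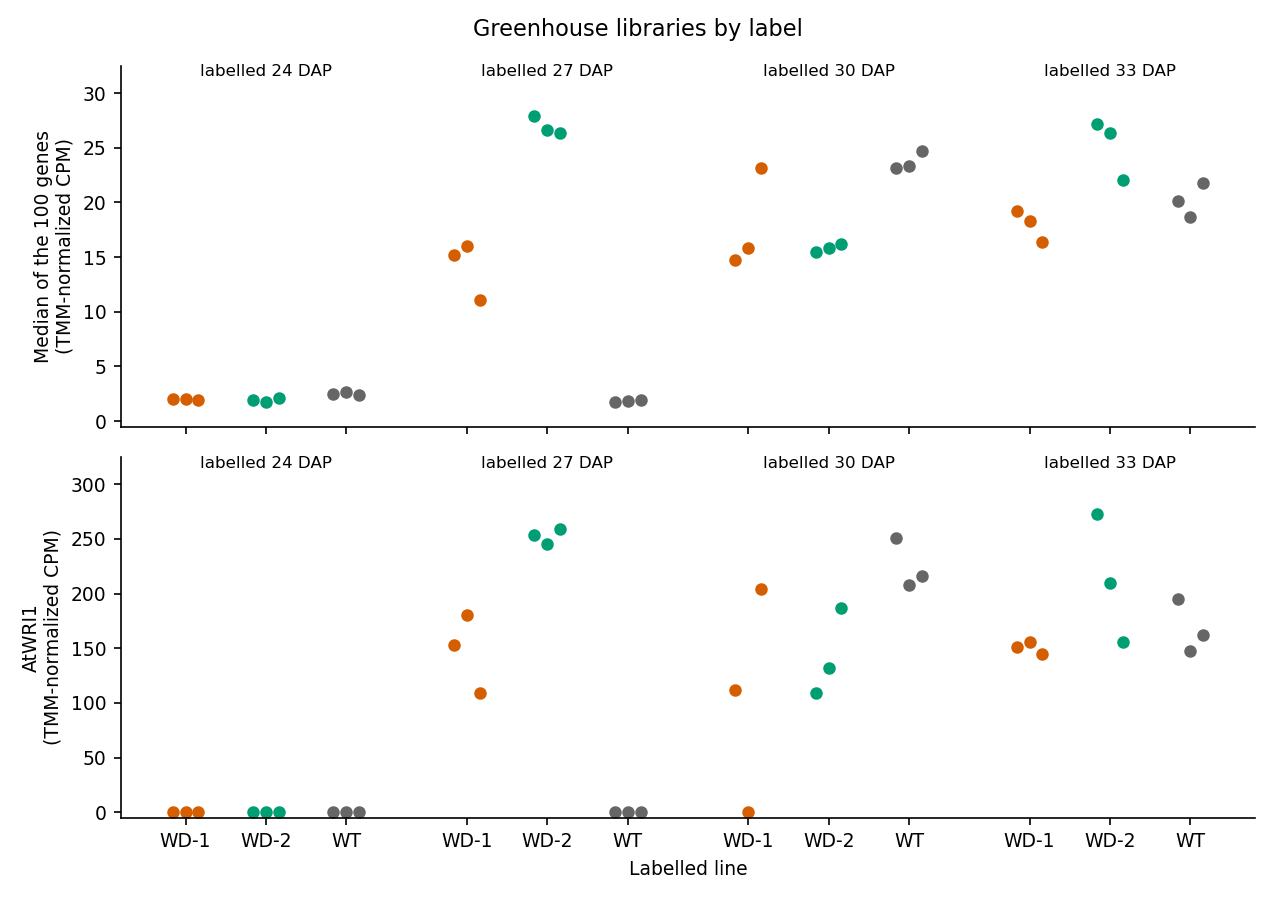
Median of the 100 genes (upper panel) and AtWRI1 (lower panel) in the 36 greenhouse libraries, in TMM-normalized CPM, by labelled line and labelled day; each point is 1 library. The 12 libraries near 0 for AtWRI1 at labelled 24 DAP and labelled WT 27 DAP have list medians of 1.73 to 2.70, and the library labelled WD-1 30 DAP replicate 2 has AtWRI1 at 0 and a list median of 15.9.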

How the data were processed

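The authors deposited 1 table of estimated counts per library (63 libraries, 27 field and 36 greenhouse, 55900 rows each), without normalization per the file headers; the submitters' processing notes name kallisto 0.43.1, sleuth 0.30.0, FastQC 0.11.5 and R 3.6.3 without their roles. For the genome build, the annotation and any summing over transcripts, nothing is given in the sources used here. Expected counts were rounded to whole numbers; 55.4% to 87.1% of the deposited values were whole. The row without a gene name held at most 4 counts and was left out.

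The 100 genes, the lists and the tests were chosen with earlier results of these data known. Tests were edgeR 4.0.16 quasi-likelihood F-tests in R 4.3.3, 2-sided, with TMM scaling and filterByExpr, and p-values were adjusted over all genes tested by the Benjamini-Hochberg method (threshold 0.05). One model held the 18 field libraries of R5 and R5/6 (38299 genes, biological coefficient of variation 0.279), and another the 9 libraries labelled 27 DAP (32983 genes, 0.133). GLYMA_08G327200 did not pass the filter in the field model. A standard error (SE) is the log2 fold change divided by the square root of F. Groups came from the labels. Levels are CPM on TMM-normalized library sizes, from factors over all 27 field or all 36 greenhouse libraries, with a floor of 3 counts. Ratios of groups with 1 to 3 counts carry 95% counting intervals. No 2 libraries were identical.

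Same-numbered field libraries deviated together, with every correlation over 0.1, only for WD-1 between R5 and R5/6 (0.219 to 0.310); the block with replicate numbers changed no count there by over 1.5 times. Alternatives were DESeq2 1.42.0, total counts, no filter, all groups or only the compared libraries in the model, the replicate block, leaving out each library, and leaving out libraries under 5 M, the last and the libraries outside a comparison chosen after seeing the data. The fits were also run on simulated counts that gave all genes the same spread, unlike these data, and nothing is read from them. The rule for named genes took the largest and smallest changes of each comparison among the 100; at most 2 in each direction are printed because the identifiers carry no names, and 19 gene lists and 12 promoter motifs could not be matched. Python 3.11.15, numpy 2.4.6, pandas 2.3.3, scipy 1.17.1 and matplotlib 3.10.9 were used for the other steps.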

Additional observations from a re-analysis of the deposited data

Results flagged for a closer look

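The effect of WD-1 against WT differed between R5/6 and R5 for 8 of the 99 genes tested, in each case larger at R5/6, by a test of the difference itself in edgeR. GLYMA_08G003100 had a log2 difference of 4.49, and GLYMA_07G121900 one of 2.83. At R5 GLYMA_08G003100 stood at 1.13, 1.91 and 1.37 in WD-1, against 0.799, 0.457 and 0.804 in WT, and the difference did not pass the test (adjusted p = 0.718). In GLYMA_07G121900 WD-1 stood above WT at R5/6, and at R5 its libraries at 7.03 and 6.85 lay below all 3 WT libraries while the third, at 13.0, lay above them. All 8 calls were lost without WT R5 replicate 1 or WT R5/6 replicate 3.

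Greenhouse libraries outside the tested day held signal that their labels do not predict. The library labelled WD-1 30 DAP replicate 2 had 0 transgene counts and a median of the 100 genes of 15.9 TMM-normalized CPM, above the 12 libraries labelled 24 DAP or WT at 27 DAP. The libraries labelled WT at 30 DAP carried both transgenes, and the lowest of their medians was 23.1. The cause was not tested.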

How the results depend on the processing

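The number of all tested genes called in the same direction stands in brackets. With DESeq2 the genes called higher were 47 for W-1 (126) and 46 for WD-1 (824) at R5/6, 2 for WD-1 at R5 (116), and 5 for W-1 (10) and 18 for WD-1 (495) in the line by stage differences, and 4 fell in WD-1 between the stages (2232). With total counts in place of TMM, 48 were higher for WD-1 at R5/6 (887), 9 rose (1472) and 29 fell (9883) in WT between the stages, 8 fell in W-1 (13262), and 27 rose in WD-1 (527). With no filter on low counts, 24 were higher for W-1 (45) and 38 for WD-1 (650) at R5/6. With all groups in the model, 23 were higher for W-1 at R5/6 (40) and 0 lower for labelled WD-2 (3742). With only the compared libraries, 9 were higher for W-1 at R5/6 (14), 0 for WD-1 at R5 (5), and 27 rose in WD-1 (903). Without the libraries under 5 M (13 kept), 0 were higher for WD-1 at R5 (8), 41 rose (3159) and 5 fell (3692) in W-1, 10 rose (445) and 1 fell (403) in WD-1, 1 was higher (1222) and 3 lower (440) for WD-1 against W-1, and 2 had a larger WD-1 effect at R5/6 (213). On TMM-normalized CPM the median log2 ratio of W-1 to WT at R5 was 0.0286, against 0.0760 on CPM. The causes were not tested.

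Leaving out single libraries gave 2 to 30 genes higher for W-1 at R5/6, 5 to 41 for WD-1 at R5/6, 0 to 1 for WD-1 at R5, 11 to 23 rising and 11 to 19 falling in WT, 0 to 4 falling in W-1, 20 to 55 rising and 1 to 4 falling in WD-1, 0 to 1 lower for WD-1 against W-1, 1 to 2 lower for labelled WD-2, and 0 to 3 for W-1 and 0 to 14 for WD-1 in the line by stage differences. With the replicate block, 14 genes were higher for W-1 and 25 for WD-1 at R5/6, 44 rose and 2 fell in WD-1, and 9 differed between the stages in WD-1; it moved no count by over 1.5 times. Among the values of named genes under alternatives, 742 stayed past the threshold, 163 lost it and 0 changed direction. With the rule on TMM-normalized CPM 84 of the 100 genes stayed, with a pseudocount of 1 CPM 96, with a minimum of 10 CPM 73, and without single R6 libraries 87 to 99. Depth limits the low class most: in a library of 1.17 M a count of 0 leaves levels up to 2.56 CPM possible.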
